A study of Rattus norvegicus with 80 samples.

Results

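The genes described here are 6 of the 32883 gene identifiers in a table of read counts from rat mammary tissue: the fat hormone adiponectin and genes that define fat cells and handle lipid. The members were fixed as a list of identifiers. They are Adipoq (ENSRNOG00000001821), Fabp4 (ENSRNOG00000010805), Pparg (ENSRNOG00000008839), Cebpa (ENSRNOG00000010918), Lpl (ENSRNOG00000012181) and ENSRNOG00000005924. The last is listed under the name of another fat hormone. Its levels, given below, were lowest in fat cells, which goes against that name, so it is called by its identifier throughout. The names of the other 5 come from the list too, because the reference table used here pairs no Ensembl identifier with a symbol.

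Fat cells form when Pparg, a nuclear receptor, and Cebpa, a leucine-zipper transcription factor, raise each other and switch on the genes of the mature cell. Among those genes are Adipoq, which encodes the secreted hormone adiponectin, Fabp4, a carrier of fatty acids inside the cell, and Lpl, the lipase that releases fatty acids from circulating lipoproteins. In the mammary pad, fat cells surround the epithelial ducts and share the pad with fibroblasts and other stromal cells.

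RNA sequencing covered 80 libraries in 19 groups from wildtype rats and from 3 rat lines, named IF, PS and IFPS in the labels, that carry mutations in Nf1. The labels do not spell these names out and give no age, strain or treatment, and a line may stand for 1 allele or a combination. Nf1 encodes neurofibromin, a brake on Ras signaling, and the title of the series concerns fat-cell differentiation and collagen in mammary tissue before tumors form. Adipocytes, fibroblasts and mammary epithelial cells (MECs) were each profiled in 3 libraries per line. The fibroblasts and MECs were cultured before RNA extraction, while the labels describe the adipocytes as mature cells. Whole pads comprised 6 wildtype, 3 IF, 6 PS and 6 IFPS libraries, and tumors comprised 5 IF, 9 PS and 9 IFPS libraries. The labels do not say whether libraries came from separate animals, so p-values measure only the spread between libraries, part of which may be technical. Libraries held 17344717 to 37293141 counted reads. Levels are given in CPM, reads of a gene scaled to a common library total with factors from the trimmed mean of M-values (TMM), and they are compared within a gene, since no gene lengths were used.

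Some libraries stood apart or went against their labels. The pads carry title numbers 1 to 12 for a first set and 13 to 21 for a second set. ENSRNOG00000012067, an identifier with no symbol here, had 83.0 to 176.8 CPM in the 18 libraries of IF and PS cells and 0.306 to 18.6 CPM in the 18 libraries of wildtype and IFPS cells. In the 3 wildtype pads numbered 13 to 15 it had 195 to 250.3 CPM, and in the PS pad numbered 20 it had 16.1 CPM, so these 4 pads went against the pattern of their labelled line. Pad results are therefore also given for numbers 1 to 12 alone. The IFPS tumor of replicate 6 and the IF adipocyte libraries are described with the results they touch.

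Adipoq separated fat-containing samples from the cultured cells by the widest fold of the 6 members. Wildtype adipocytes had 7519, 5356 and 3862 CPM. Wildtype MECs had 1.34, 1.80 and 2.60 CPM, and wildtype fibroblasts had 0.208, 0.472 and 0.0450 CPM, which are 4, 10 and 1 reads. No cell library came near the adipocyte range. Over the lines, group means ± SD (n = 3 each) were 6118 ± 1257 CPM in PS, 5579 ± 1839 in wildtype, 5287 ± 855 in IFPS and 3087 ± 2226 in IF adipocytes. Pads came next, with means of 3074 ± 2096 CPM in wildtype (n = 6), 2779 ± 1356 in IF (n = 3), 2079 ± 1362 in IFPS (n = 6) and 2052 ± 1155 in PS (n = 6). Neighbours in that order, from PS adipocytes down to PS pads, lay within 1 SD of each other by the larger SD of the 2 groups. The means of IFPS and IF adipocytes lay farther apart than the IFPS SD of 855 CPM. Tumors ranked between pads and MECs by group mean and are described below with their spread. MECs had group means of 1.24 to 1.91 CPM, and fibroblasts 0.148 to 0.388 CPM.

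**Figure D1:**
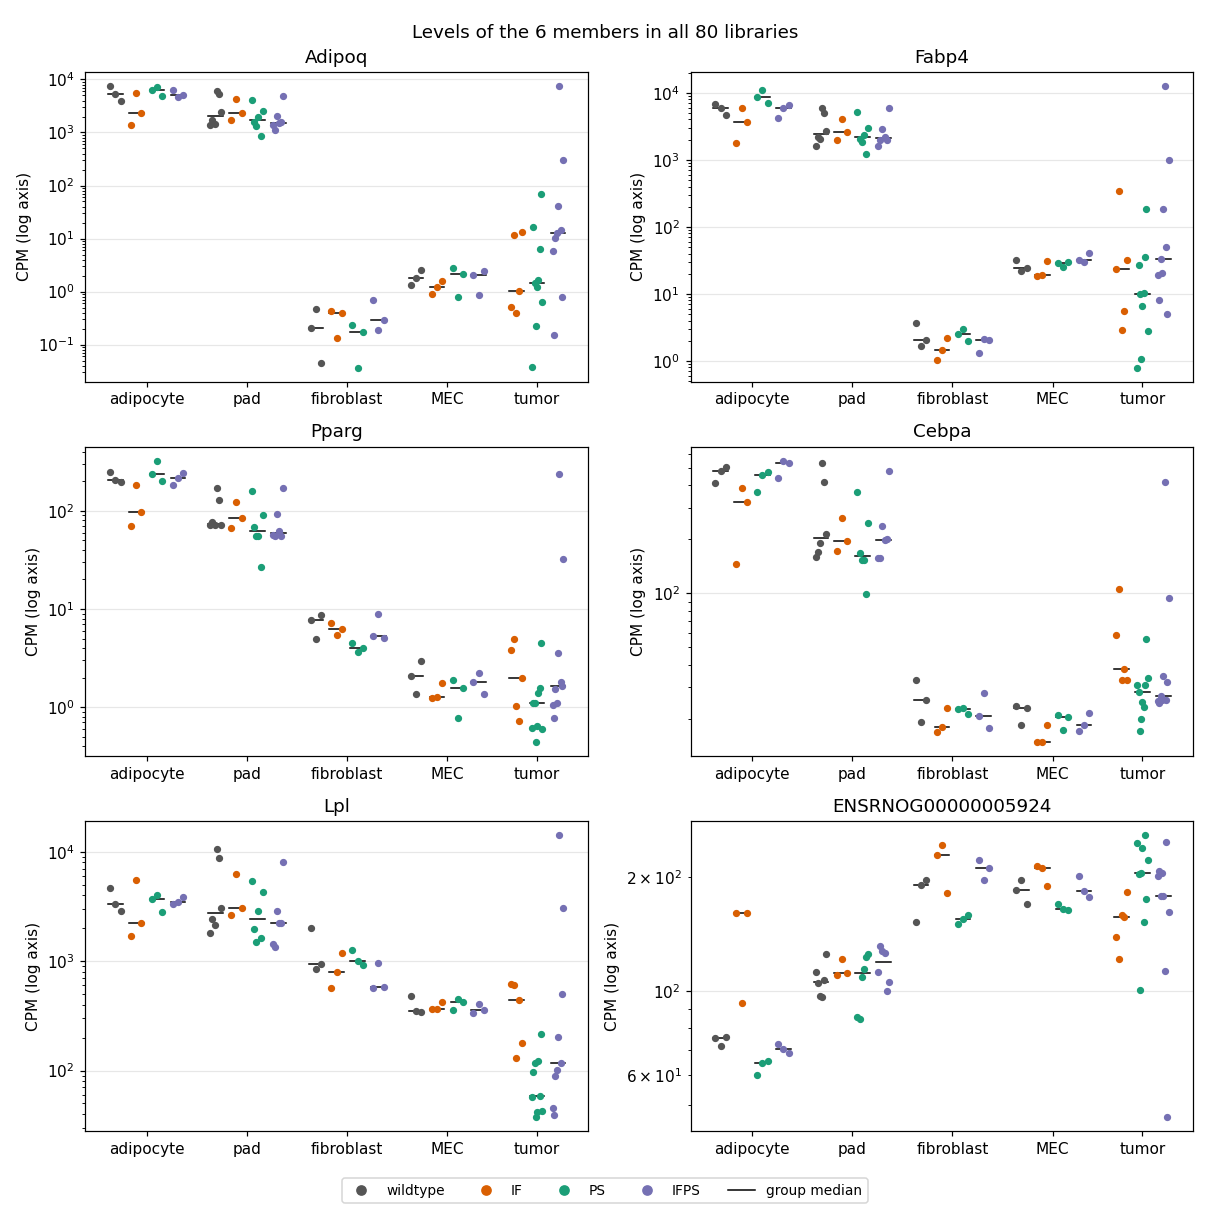
CPM on a log axis for the 6 members in all 80 libraries, with 1 panel per member, tissues along the x axis, colors for the lines (left to right wildtype, IF, PS, IFPS; no wildtype tumors) and a bar at each group's median. Adipoq, Fabp4, Pparg and Cebpa have their highest group medians in adipocytes and pads, and Lpl is also present in fibroblasts and MECs. The highest single library of Adipoq, Fabp4 and Lpl is the IFPS tumor of replicate 6. ENSRNOG00000005924 has its lowest group medians in wildtype, PS and IFPS adipocytes.

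Fabp4 followed the same arrangement with a clearer second step in MECs. Wildtype adipocytes had 6748, 5937 and 4659 CPM, wildtype MECs 32.5, 22.1 and 24.0 CPM, and wildtype fibroblasts 3.74, 1.65 and 2.02 CPM. Over all lines the 12 MEC libraries ran from 18.8 to 40.1 CPM and the 12 fibroblast libraries from 1.02 to 3.74 CPM, with no overlap. PS adipocytes had the highest group mean, 8957 ± 2003 CPM, and their 3 values of 8737, 11061 and 7072 CPM all lay above the 3 wildtype values.

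The transcription factors ranked the cultured cells differently. Pparg had 250.2, 208 and 197 CPM in wildtype adipocytes, 7.79, 4.95 and 8.72 CPM in wildtype fibroblasts and 2.09, 1.38 and 2.94 CPM in wildtype MECs. Over all lines its fibroblast range of 3.62 to 8.89 CPM lay above its MEC range of 0.778 to 2.94 CPM. Cebpa had 415, 479 and 507 CPM in wildtype adipocytes. It kept a low level in both cultured types, with 33.1, 19.2 and 25.5 CPM in wildtype fibroblasts and 23.5, 18.4 and 22.9 CPM in wildtype MECs. For Cebpa the fibroblast and MEC ranges overlapped.

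Lpl was the least restricted of the 5 named genes. Wildtype adipocytes had 4662, 3346 and 2889.6 CPM, wildtype fibroblasts 2032, 843 and 940.4 CPM, and wildtype MECs 477, 352 and 343 CPM. Over all lines fibroblasts had 573 to 2032 CPM and MECs 334 to 477 CPM, with no overlap. Wildtype pads had the highest group mean of Lpl, 4803 ± 3877 CPM, ahead of IF pads at 3976 ± 1999 CPM and of every adipocyte group (3154 to 3632 CPM), within the spread of the pads.

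ENSRNOG00000005924 ran the other way. It had 75.3, 71.7 and 75.7 CPM in wildtype adipocytes, 152, 191 and 197 CPM in wildtype fibroblasts and 185, 196 and 170.0 CPM in wildtype MECs. It was present in every library, from 46.6 CPM in 1 IFPS tumor to 257 CPM in 1 PS tumor. The wildtype, PS and IFPS adipocytes were the 3 lowest of the 19 groups, with means of 74.2, 63.4 and 70.6 CPM, and the pads came next with means of 107 to 117 CPM.

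Wildtype adipocytes were compared with wildtype fibroblasts and MECs in a fit over the 57 normal libraries, with edgeR's quasi-likelihood test and Benjamini-Hochberg adjustment over all 17126 genes tested. A gene was called at an adjusted p under 0.05. Against fibroblasts, 5 members were called higher and 1 lower, where 34.5% of all genes tested were called higher and 28.4% lower. The log2 differences were 14.54 ± 0.97 (SE) for Adipoq, 11.26 ± 0.67 for Fabp4, 4.99 ± 0.49 for Pparg, 4.23 ± 0.43 for Cebpa and 1.57 ± 0.56 for Lpl, and the largest adjusted p from edgeR was 0.0129, for Lpl. The Lpl call was lost without wildtype fibroblast replicate 2 or 3 (adjusted p = 0.0671 and 0.0589). The Adipoq value rests on the 4, 10 and 1 fibroblast reads given above. For ENSRNOG00000005924 the difference was -1.21 ± 0.14 (adjusted p = 6.47e-10 in edgeR). Against MECs the same 5 were called higher and ENSRNOG00000005924 lower, beside 35.1% and 31% of all genes. There Pparg differed by 6.74 ± 0.54 and Lpl by 3.29 ± 0.59, more than against fibroblasts, while Adipoq (11.58 ± 0.83) and Fabp4 (7.86 ± 0.58) differed by less.

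The named genes differed less between adipocytes and whole pads than between adipocytes and the cultured cells. In wildtype, Pparg was 2.30-fold higher in adipocytes (log2 1.20 ± 0.34, adjusted p = 0.00177, edgeR) and its groups did not overlap, with 197 to 250.2 CPM in adipocytes against 71.1 to 170.4 CPM in pads. How many of all genes did not overlap there is not given here. Fabp4 (log2 0.89 ± 0.36, adjusted p = 0.026) and Cebpa (0.79 ± 0.31, adjusted p = 0.023) were also called higher, with overlapping groups. ENSRNOG00000005924 was called lower (-0.49 ± 0.13). Adipoq differed by 0.92 ± 0.44 (adjusted p = 0.0599) and Lpl by -0.34 ± 0.48 (adjusted p = 0.52), and neither was called by edgeR. So 3 members were called higher and 1 lower, where 33.1% of all genes tested were called higher and 40.8% lower and the median gene differed by -0.18. With pads numbered 1 to 12 alone, Adipoq was 1.89 ± 0.43 higher in adipocytes (adjusted p = 0.000177, edgeR), and Lpl turned to 0.81 ± 0.40 (adjusted p = 0.0654). Fabp4 and Cebpa each lost their call in 5 of 9 fits that left out 1 library, with adjusted p up to 0.0963 and 0.0759.

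Promoter windows of the members that stood together in fat cells are shown so that their letters can be set beside the levels. The windows cover the 250 bases before the annotated start, from RefSeq on build GRCr8, printed 5′ to 3′ on the strand of the gene. Of the 6 listed symbols, Adipoq, Cebpa and Pparg (with 2 starts) are shown. Fabp4 and Lpl have no entry in the table used. The window under the sixth listed symbol is left out, because the levels of ENSRNOG00000005924 go against that name. Capitals mark a match to a searched motif on either strand. The motifs were AGGTCA, a half-site for nuclear receptors, its direct repeat with a 1-base spacer (DR1), the form bound by Pparg with its partner receptor, TTGCNNAA, a core of sites for C/EBP factors, CACGTG, the E-box, and TATAAA, the TATA box. The windows are Adipoq at chr11:91240170-91240419 (minus strand), Pparg at chr4:150096808-150097057 and chr4:150154522-150154771 (plus strand) and Cebpa at chr1:96896334-96896583 (plus strand).
Adipoq: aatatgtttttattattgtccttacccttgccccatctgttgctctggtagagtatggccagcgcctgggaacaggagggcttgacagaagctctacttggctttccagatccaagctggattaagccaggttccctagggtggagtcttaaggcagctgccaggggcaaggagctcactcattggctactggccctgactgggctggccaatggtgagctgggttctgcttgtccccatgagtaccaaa
Pparg, first start: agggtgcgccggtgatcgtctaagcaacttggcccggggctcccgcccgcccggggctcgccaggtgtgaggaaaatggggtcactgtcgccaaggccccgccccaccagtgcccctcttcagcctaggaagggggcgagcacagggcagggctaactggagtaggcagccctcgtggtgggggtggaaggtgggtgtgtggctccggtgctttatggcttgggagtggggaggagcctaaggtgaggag
Pparg, second start: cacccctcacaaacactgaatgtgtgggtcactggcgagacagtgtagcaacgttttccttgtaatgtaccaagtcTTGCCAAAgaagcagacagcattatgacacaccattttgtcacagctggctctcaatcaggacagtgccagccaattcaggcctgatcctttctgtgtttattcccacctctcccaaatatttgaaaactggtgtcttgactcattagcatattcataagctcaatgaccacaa
Cebpa: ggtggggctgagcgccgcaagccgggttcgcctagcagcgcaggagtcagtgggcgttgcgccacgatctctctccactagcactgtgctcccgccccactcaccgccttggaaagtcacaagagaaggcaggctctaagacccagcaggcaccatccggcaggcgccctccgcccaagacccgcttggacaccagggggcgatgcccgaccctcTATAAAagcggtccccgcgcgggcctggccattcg
The window of the second Pparg start held TTGCNNAA at 174 to 167 bases before the start, and the Cebpa window held TATAAA at 35 to 30 bases before the start. The windows of Adipoq and of the first Pparg start held none of the 5 motifs. Among all 33469 promoter windows of the same length, 14.1% held AGGTCA, 0.0508% the DR1 repeat, 9.22% TTGCNNAA, 5.59% CACGTG and 12.9% TATAAA.

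In adipocytes, the IF line was the 1 line in which any member was called against wildtype. Pparg had 69.9, 183 and 97.3 CPM in the 3 IF libraries against 250.2, 208 and 197 CPM in wildtype. All 3 IF values lay below the lowest wildtype value, and replicate 2 came close to it. Pparg was 1.84-fold lower (log2 -0.88 ± 0.29, adjusted p = 0.0294 in edgeR over 14304 genes). ENSRNOG00000005924 had 161, 93.1 and 161 CPM in IF against 71.7 to 75.7 CPM in wildtype, with all 3 IF values above, and was 1.92-fold higher (log2 0.94 ± 0.18, adjusted p = 0.00196). These are 1 member called lower and 1 higher, in a comparison where 21.7% of all genes tested were called lower and 26.5% higher, so the share of members called, 1 of 6 each way, was no higher than the background.

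The other members did not pass the test in IF adipocytes. Cebpa had 146, 386 and 325 CPM in IF against 415, 479 and 507 CPM in wildtype, without overlap (log2 -0.69 ± 0.27, adjusted p = 0.0585 in edgeR, and 0.0349 in DESeq2). How many of all genes did not overlap there is not given here. Adipoq had 1368, 5601 and 2293 CPM in IF, on both sides of the wildtype values (-0.83 ± 0.43, adjusted p = 0.129). Fabp4 had 1786, 5865 and 3725 CPM (-0.58 ± 0.36, adjusted p = 0.196), and Lpl had 1695, 5516 and 2253 CPM (-0.18 ± 0.36, adjusted p = 0.702), and both overlapped wildtype. In each of the 5 named genes IF replicate 2 was the highest IF library and replicate 1 the lowest.

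The Pparg call depended on single libraries. That of ENSRNOG00000005924 held under all 10 alternatives, with edgeR adjusted p values of 1.64e-06 to 0.0267. Without IF replicate 2, all 6 members were called by edgeR: Adipoq at -1.57, Pparg at -1.35, Fabp4 at -1.04, Cebpa at -0.96, Lpl at -0.84 and ENSRNOG00000005924 at 1.15 on the log2 scale. The share of all genes called in that fit is not given here, so this count has no background to be read against. Without IF replicate 1 or 3, or without wildtype replicate 1 or 2, the Pparg call was lost (adjusted p 0.0548 to 0.1025). It was also lost when only the IF and wildtype libraries were fitted (adjusted p = 0.0918).

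Genes of the other cell types moved with these values. For each cell type, a score was taken as the mean log2 CPM of the identifiers at least 8 times higher in its wildtype libraries than in both other types, members left out: 276 for adipocytes, 47 for fibroblasts and 198 for MECs. The MEC score of IF adipocyte replicates 1, 2 and 3 was 3.71, 0.53 and 3.42, against -1.07, -1.09 and 0.10 in wildtype and -1.53 to -1.23 in PS and IFPS adipocytes. The fibroblast score was 3.32, 2.55 and 3.22 in IF, against 0.86 to 1.14 in wildtype and 0.50 to 0.77 in PS and IFPS. The adipocyte score was 6.07, 7.27 and 6.55 in IF and 6.67 to 7.30 in wildtype. Thus the 2 IF libraries lowest in the 5 named genes were also those with the highest MEC score and the lowest adipocyte scores. The part of these other genes in the IF result was not tested. In such samples, fewer fat cells and less RNA of a gene per fat cell cannot be told apart, and the same holds for pads and tumors.

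**Figure D2:**
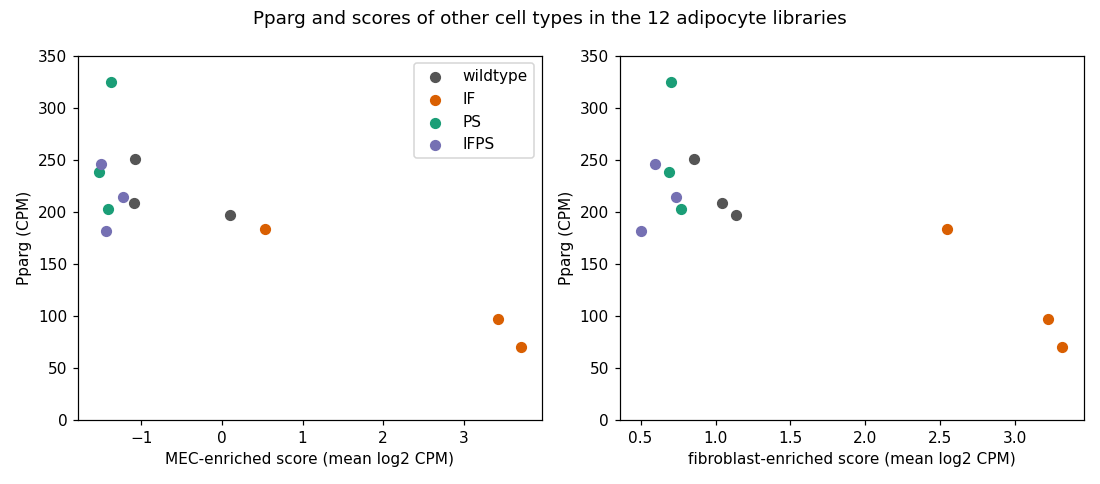
Pparg (CPM, y axis from 0) against the score of MEC-enriched genes (left) and of fibroblast-enriched genes (right), both as mean log2 CPM, in the 12 adipocyte libraries, colored by line. IF replicates 1 and 3, at 69.9 and 97.3 CPM, have MEC scores of 3.71 and 3.42, while IF replicate 2, at 183 CPM, has a MEC score of 0.53.

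PS and IFPS adipocytes did not differ detectably from wildtype in any member. For PS, 0 of 6 members were called by edgeR, 0 had an unadjusted p under 0.05 and 0 were called by DESeq2, beside 0.378% of all genes. Fabp4 had the largest estimate, 0.65 ± 0.36 (adjusted p = 0.54). For IFPS the 3 member counts were also 0, beside 0% of all genes, and the estimates ran from -0.06 to 0.13. Adipoq in IFPS adipocytes had 6249.8, 4616 and 4994 CPM, within the wildtype range of 3862 to 7519 CPM.

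The 3 mutated lines were also set against each other in adipocytes. Against IF, PS adipocytes had 2.35-fold more Fabp4 (log2 1.23 ± 0.36, adjusted p = 0.0151, edgeR) and 2.17-fold more Pparg (1.11 ± 0.29, adjusted p = 0.009), both without overlap, and less ENSRNOG00000005924 (-1.15 ± 0.18). That is 2 members called higher and 1 lower, beside 24.8% and 27.9% of all genes. How many of all genes did not overlap in this comparison and the next is not given here. Against IF, IFPS adipocytes had more Cebpa (0.82 ± 0.27, adjusted p = 0.0275, without overlap) and Pparg (0.86 ± 0.29, adjusted p = 0.0296, overlapping) and less ENSRNOG00000005924 (2.001-fold, adjusted p = 0.00107), beside 24.6% of all genes called higher and 28.3% lower. Without IF replicate 2, all 6 members were called in both comparisons, and the shares of all genes called in those fits are not given here. With only the 2 groups compared in the fit, Fabp4 lost its call in PS against IF (adjusted p = 0.0623), and Pparg and Cebpa lost theirs in IFPS against IF (0.0756 and 0.0851). These comparisons share the IF libraries and their scores. IFPS and PS adipocytes differed in 0 of 6 members by edgeR, with 0 at an unadjusted p under 0.05 and 0 by DESeq2, beside 0.028% of all genes.

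**Figure D3:**
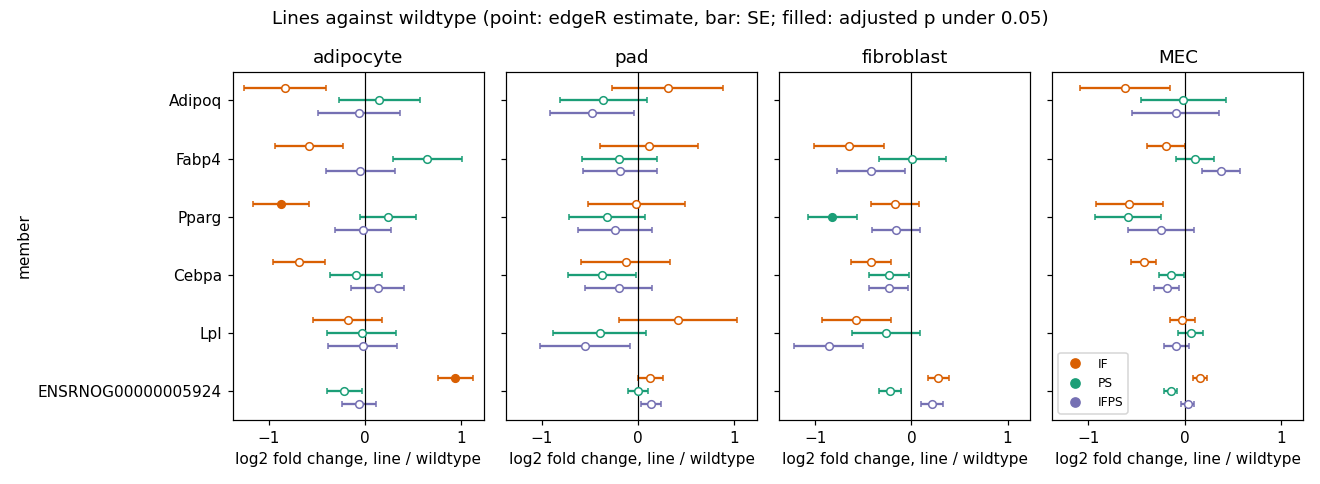
Log2 fold change of each line against wildtype (points, edgeR) with its standard error (bars) for the 6 members in adipocytes, pads, fibroblasts and MECs, on 1 shared x axis. Filled points passed an adjusted p of 0.05: Pparg and ENSRNOG00000005924 in IF adipocytes and Pparg in PS fibroblasts. Adipoq in fibroblasts did not pass the low-count filter and is not drawn.

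Whole pads showed no called member in any line. Adipoq in wildtype pads ran from 1408 through a median of 2078 to 6109 CPM, in PS pads from 874 through 1757 to 4113 CPM and in IFPS pads from 1120.1 through 1541 to 4786 CPM. The 3 IF pads had 1685, 4296 and 2355 CPM. All lines overlapped wildtype. In a fit with the title-number set as a covariate, Adipoq differed from wildtype by 0.31 ± 0.58 in IF, -0.36 ± 0.45 in PS and -0.48 ± 0.44 in IFPS. Over the 6 members and 3 lines the estimates ran from -0.56 (Lpl in IFPS) to 0.41 (Lpl in IF). The counts called by edgeR, at an unadjusted p under 0.05 and by DESeq2 were 0 of 6 in every line, where the share of all 16384 genes called was 0% for IF, 0.0061% for PS and 0% for IFPS. The difference between the IF effects on Pparg in adipocytes and in pads depended on the pads used. It was -0.79 ± 0.54 with all pads (adjusted p = 0.257, edgeR) and -1.20 ± 0.44 with pads numbered 1 to 12, the only set with IF pads (adjusted p = 0.0262).

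The estimates for PS pads depended on which pads were used. With numbers 1 to 12 alone, PS minus wildtype was 0.59 for Adipoq, 0.61 for Fabp4, 0.36 for Pparg, 0.40 for Cebpa and 0.48 for Lpl. With numbers 13 to 21 alone, the same differences were -1.37, -1.06, -1.10, -1.22 and -1.34. None was called in either set, with edgeR adjusted p values of 0.4009 to 0.6068 in the first and 0.2052 to 0.2418 in the second. The second set holds wildtype pads 13 to 15 and PS pad 20, in which ENSRNOG00000012067 went against the label. IFPS pads showed the same turn for Adipoq, Fabp4 and Cebpa, at 0.01, 0.16 and 0.09 in the first set and -0.82, -0.45 and -0.41 in the second. IF pads exist in the first set only, and there all 6 estimates were above 0, from 0.11 to 0.89, with none called.

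Within wildtype, 4 of the 5 named genes had higher levels in every pad of the second set than in the first, but none was called. Adipoq had 6109, 5328 and 2425 CPM in pads 13 to 15 against 1408, 1731 and 1439.8 CPM in pads 1 to 3, and Lpl had 10687, 8747 and 3048 CPM against 1796, 2416 and 2127 CPM. Groups did not overlap for Adipoq, Lpl, Fabp4 and Cebpa, as was the case for 19.1% of all genes in that direction. The log2 differences were 1.84 ± 0.63 for Lpl, 1.61 ± 0.56 for Adipoq, 1.24 ± 0.49 for Fabp4 and 1.18 ± 0.43 for Cebpa, with edgeR adjusted p values of 0.0732, 0.0753, 0.0986 and 0.0817. So 0 of 6 were called by edgeR, beside 3.86% of all genes. An unadjusted p under 0.05 in edgeR was reached by 4 members, beside 5572 of all 16384 genes. DESeq2 called 4 members, and its share of all genes is not given here. The same wildtype pads 13 to 15 are those in which ENSRNOG00000012067 went against the label. Their MEC scores were 2.97, 3.71 and 4.15, against 3.92 to 4.33 in pads 1 to 3. The part of either in the difference was not tested.

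The 5 named genes moved together from pad to pad. Over the 21 pads, Adipoq in log2 CPM correlated with Lpl (Pearson r = 0.974, Spearman rho = 0.979), Fabp4 (0.971, 0.951), Cebpa (0.94, 0.886) and Pparg (0.926, 0.865). Each permutation p was 1e-05, the smallest that the 100000 permutations can give, and the largest adjusted value was 2e-05 over 10 relations. Without the 2 pads farthest from the median Adipoq level, r was 0.905 to 0.959, and within the number sets it was 0.905 to 0.987. ENSRNOG00000005924 showed no such relation (r = -0.27, permutation p = 0.236, adjusted 0.263; rho = -0.238). The log2 ratio of Lpl to Adipoq within a pad was 0.54 ± 0.19 (SD, n = 6) in wildtype, 0.52 ± 0.14 (n = 3) in IF, 0.53 ± 0.27 (n = 6) in PS and 0.44 ± 0.25 (n = 6) in IFPS. The exact two-sided permutation p of a line against wildtype was 0.435 to 0.933.

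In cultured fibroblasts the 1 called difference from wildtype was in Pparg. PS fibroblasts had 4.56, 3.62 and 4.05 CPM, all below the wildtype values of 7.79, 4.95 and 8.72 CPM (log2 -0.82 ± 0.25, adjusted p = 0.0407 in edgeR over 13879 genes). This was 1 of 5 members tested, beside 11.2% of all genes called lower. Leaving out 1 library ended the Pparg call in 5 of 6 fits, with adjusted p up to 0.148, and it was kept only without wildtype replicate 2. A fit of PS and wildtype alone gave an adjusted p of 0.0635. In IF and IFPS fibroblasts 0 of 5 members were called by edgeR, beside 7.66% and 0.0648% of all genes, and 0 by DESeq2. An unadjusted p under 0.05 was reached by 1 member in each, beside 3651 and 2965 of all 13879 genes.

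Among the mutated fibroblasts, ENSRNOG00000005924 was lowest in PS. PS fibroblasts had 150.1, 155 and 159 CPM, against 228, 243 and 181 CPM in IF and 222, 196 and 211 CPM in IFPS, without overlap. It was lower in PS than in IF (log2 -0.50 ± 0.11, adjusted p = 0.0297, edgeR) and higher in IFPS than in PS (0.44 ± 0.11, adjusted p = 0.00942). The first call was lost in 5 of 6 fits that left out 1 library (adjusted p 0.0719 to 0.1084) and kept without IF replicate 3, and the second was kept in all 6. Each was 1 of 5 members called, beside 2.47% of all genes called lower and 20.4% called higher in the respective comparison. How many of all genes did not overlap in them is not given here. Pparg in IFPS against PS gave 0.66 ± 0.25 (adjusted p = 0.0575 in edgeR and 0.0361 in DESeq2). IFPS and IF fibroblasts differed in 0 of 5 members by edgeR, with 0 at an unadjusted p under 0.05 and 0 by DESeq2, beside 31.4% of all genes.

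In MECs 0 of 6 members were called in any line by edgeR or by DESeq2, beside 0.817% of all genes in IF, 2.36% in PS and 0.374% in IFPS. At an unadjusted p under 0.05 there were 2 members in IF and 0 in PS and in IFPS. In IF, 2512 of all 14688 genes reached that level. The IF values that came nearest were those of Cebpa, with 14.8, 14.9 and 18.5 CPM against 18.4 to 23.5 CPM in wildtype (-0.43 ± 0.13, adjusted p = 0.132).

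The IF effect on ENSRNOG00000005924 was larger in adipocytes than in pads or fibroblasts. Its IF-minus-wildtype difference exceeded that in pads by 0.81 ± 0.19 on the log2 scale (adjusted p = 0.000677, edgeR) and that in fibroblasts by 0.60 ± 0.20 (adjusted p = 0.0172). It was the 1 member of 6 called in each of these tests, beside 36.9% and 32% of all genes. Adipoq is counted among the 6 in the tests against fibroblasts, where it had only 1 to 15 reads per fibroblast library. The second call was lost without IF adipocyte replicate 1 or 3, without wildtype fibroblast replicate 3 and without IF fibroblast replicate 3 (adjusted p 0.0526 to 0.0886). With pads numbered 1 to 12 alone, 4 members were called in the test against pads: Adipoq at -1.70, Pparg at -1.20, Cebpa at -0.98 and ENSRNOG00000005924 at 0.79. For that fit the share of all genes called is not given here. The PS and IFPS effects in adipocytes differed from those in pads or fibroblasts in 0 of 6 members by edgeR, with 0 at an unadjusted p under 0.05 and 0 by DESeq2, beside 2.7% (PS) and 1.51% (IFPS) of all genes against pads and 4.99% (PS) and 1.86% (IFPS) against fibroblasts. The scores of IF adipocytes given above apply to these tests too.

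Tumors of the PS line held little RNA of the fat genes. Adipoq in the 9 PS tumors ran from 0.0380 through a median of 1.46 to 70.3 CPM, against 874 through 1757 to 4113 CPM in the 6 PS pads. No tumor reached the lowest pad. It was 189-fold lower (log2 -7.57 ± 1.69, adjusted p = 0.000865 in edgeR over 17227 genes). Fabp4 (-6.39 ± 1.46), Pparg (-5.85 ± 1.03), Lpl (-5.09 ± 0.97) and Cebpa (-2.77 ± 0.52) were lower too, with edgeR adjusted p values of 8.73e-05 to 0.00107. ENSRNOG00000005924 was higher (0.89 ± 0.22, adjusted p = 0.00193), with overlapping groups. These are 5 members called lower and 1 higher, beside 20.8% and 18.1% of all genes. The 5 lower members did not overlap between groups, as 11.6% of all genes did not in that direction. Against pads 13 to 21 alone the last call was lost (0.73 ± 0.31, adjusted p = 0.0931). The cell-type scores moved as well. From PS pads to PS tumors the mean adipocyte score went from 4.13 to 2.10, the fibroblast score from 3.36 to 1.80 and the MEC score from 4.23 to 5.38, and their part in the result was not tested.

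IF tumors gave the same direction from fewer libraries. The 5 tumors had 0.519, 11.7, 0.392, 1.04 and 13.5 CPM of Adipoq, against 1685, 4296 and 2355 CPM in the 3 IF pads (log2 -9.00 ± 2.41, adjusted p = 0.0085, edgeR). Pparg had 3.81, 4.96, 1.02, 0.725 and 1.97 CPM against 66.3, 123 and 83.7 CPM (-5.19 ± 1.35, adjusted p = 0.00712). Fabp4 (-5.13 ± 1.87), Lpl (-3.33 ± 1.23) and Cebpa (-1.97 ± 0.69) were called with edgeR adjusted p values of 0.0444, 0.0467 and 0.0375. So 5 members were called lower and 0 higher, beside 13.2% and 10.1% of all genes. Adipoq and Pparg kept the call in all 8 fits that left out 1 library. Fabp4 and Cebpa kept it in 1 of 8, without IF tumor replicate 2, and Lpl in 0 of 8. With no second-set libraries in the fit, 2 members were called, and the share of all genes called in that fit is not given here. From IF pads to IF tumors the mean adipocyte score went from 4.27 to 1.97, the fibroblast score from 3.53 to 2.07 and the MEC score from 4.04 to 4.90, and their part was not tested.

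IFPS tumors ranged widely in the levels of the named genes, with replicate 6 far above the rest. Adipoq ran from 0.154 through a median of 12.6 to 7549 CPM. The highest was replicate 6, which also had 12637 CPM of Fabp4, 14143 of Lpl, 236 of Pparg and 419 of Cebpa, and which exceeded every IFPS pad in Adipoq, Fabp4, Pparg and Lpl. Its Adipoq, Fabp4 and Lpl levels were the highest of any library in the series, adipocytes included. Replicate 9 came next, with 302 CPM of Adipoq, 1003 of Fabp4, 3077 of Lpl, 32.5 of Pparg and 94.6 of Cebpa. Against IFPS pads, 1 member was called, Cebpa (-1.62 ± 0.50, adjusted p = 0.0161, edgeR), beside 12.3% of all genes called lower. Adipoq differed by -1.26 ± 1.37 (adjusted p = 0.511). Without replicate 6, all 6 members were called: Adipoq at -5.45, Fabp4 at -4.07, Pparg at -3.96, Cebpa at -2.75, Lpl at -2.56 and ENSRNOG00000005924 at 0.59, with edgeR adjusted p values of 6.01e-07 to 0.0302. For that fit the share of all genes called is not given here, so this count has no background to be read against. The Cebpa call was lost with only the first-set or only the second-set pads (adjusted p = 0.2295 and 0.0597).

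The same tumor libraries stood apart in the cell-type scores. Replicate 6 had an adipocyte score of 5.16 and a MEC score of 2.29. Replicates 8 and 9 had MEC scores of 0.06 and -0.79, and replicate 8 had the lowest ENSRNOG00000005924 level of the series, 46.6 CPM. The other 20 tumors had MEC scores of 4.19 to 5.56 and adipocyte scores of 1.47 to 3.36. The part of these differences in the levels of the members was not tested. Between tumors of the lines, 0 of 6 members were called by edgeR in each of the 3 comparisons. The share of all genes called by edgeR was 0% in IFPS against PS, 4.25% in IFPS against IF and 2.48% in PS against IF. At an unadjusted p under 0.05 there were 5, 2 and 0 members, beside 3537, 3669 and 2693 of all 15966 genes. DESeq2 called 2, 0 and 0 members, and its share of all genes is not given here.

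In PS and IFPS, the ratio of Lpl to Adipoq was higher in tumors than in pads. Of the named genes, Adipoq had the largest fall in PS and Cebpa the smallest, so this was not particular to Lpl. In IFPS neither Adipoq nor Lpl was called lower. Adipoq had as few as 1 read in a PS tumor and 5 in an IFPS tumor. The log2 ratio of Lpl to Adipoq within a library was 0.53 ± 0.27 (SD, n = 6) in PS pads and 5.19 ± 2.34 (n = 9) in PS tumors, and 0.44 ± 0.25 (n = 6) in IFPS pads and 3.91 ± 2.62 (n = 9) in IFPS tumors. Every tumor lay above every pad of its line. The exact two-sided permutation p was 0.0003996 in both, the smallest this design can give, and 0.0015984 after adjustment over 12 tests. In IF the ratio was 0.52 ± 0.14 (n = 3) in pads and 7.24 ± 2.52 (n = 5) in tumors, with an exact p of 0.0357, the smallest for these group sizes, and 0.0714 after adjustment. The lowest tumor ratio of Lpl to Adipoq, 0.91, was that of an IFPS tumor. The 12 tests also covered the log2 ratio of ENSRNOG00000005924 to Adipoq. That ratio was higher in tumors by 10.67 in PS, 7.08 in IFPS and 10.60 in IF. Its adjusted exact permutation p values were 0.0015984, 0.0108 and 0.0714. Fibroblasts and MECs hold Lpl at 334 to 2032 CPM with Adipoq at 0.0369 to 2.73 CPM. The part of such cells in the tumor ratio was not tested.

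**Figure D4:**
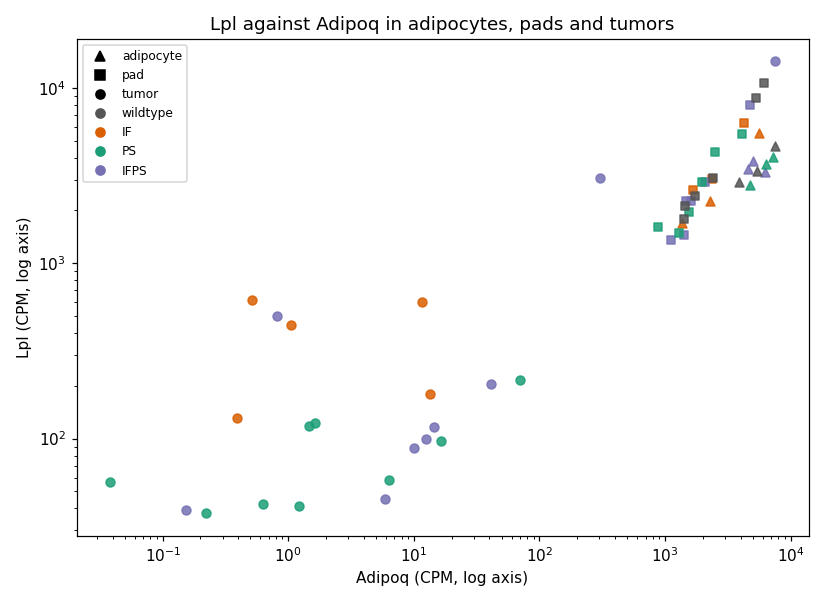
Lpl against Adipoq, both in CPM on log axes, for adipocytes (triangles), pads (squares) and tumors (circles), colored by line. Pads lie along 1 band, most tumors lie far to the left of it at 37.6 to 619.8 CPM of Lpl, and the IFPS tumors of replicates 6 and 9 lie at 14143 and 3077 CPM.

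Within tumors, Adipoq followed Fabp4 and Pparg. Over the 23 tumors, Pearson r with Adipoq in log2 CPM was 0.941 for Fabp4 (Spearman rho 0.886) and 0.856 for Pparg (rho 0.746). The permutation p of r was 1e-05 for both, the smallest possible, with an adjusted p of 1.67e-05. Without the 2 tumors farthest from the median, r stayed at 0.888 and 0.737. For Cebpa r was 0.703 (rho 0.385, permutation p = 0.00105 and 0.0709, adjusted 0.00131 and 0.0887), and for Lpl 0.69 (rho 0.484, permutation p = 0.00089 and 0.0204, adjusted 0.00127 and 0.0292). Without the same 2 tumors these r values were 0.465 and 0.445, so both relations rest largely on those tumors. For ENSRNOG00000005924 r was -0.101 (permutation p = 0.631, rho -0.152).

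Across the 19 groups, each a point of mean log2 CPM, Adipoq was most like Fabp4 among the members (Pearson r = 0.987, n = 19 groups) and least like Lpl among the named genes (0.767). Pparg was most like Cebpa (0.951) and Lpl (0.93). ENSRNOG00000005924 had negative values with all 5, from -0.762 with Lpl to -0.929 with Cebpa. Among 12031 identifiers with at least 10 CPM in 1 group, the most like Adipoq were ENSRNOG00000015519 (r = 0.996) and ENSRNOG00000009686 (0.9957), which have no symbol here, and 74 identifiers had r above 0.95. Several groups come from the same tissue, so the points are not independent and these values are a description.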

How the data were processed

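RNA was measured in 80 rat libraries, each placed in 1 of 19 groups by its tissue and genotype labels. The authors deposited raw counts, whole reads per Ensembl gene identifier, for 32883 identifiers, of which 6365 had no count. Per the submitters' processing notes, reads were trimmed with Trim Galore and STAR 2.5.2b and build Rnor_6.0 were used. The counting tool and its strand setting are not given in the sources used here, so overlapping or near-identical genes are uncertain.

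Counts were fitted with edgeR 4.0.16 in R 4.3.3: TMM scaling, filterByExpr, quasi-likelihood tests and Benjamini-Hochberg adjustment over all genes tested, called at 0.05. Fits were made per tissue (pads with the title-number set as covariate), over tumors with pads of their lines, over tumors, and over the 57 normal libraries. Standard errors are the fold change divided by the root of F. DESeq2 1.42.0, other scaling (RLE), no filter, smaller fits, single sets of pads, a replicate block and leaving out each library were alternatives. Scores and ratios used log2 CPM with a prior count of 2. The scripts were tested on simulated data. No pair of libraries of a group agreed within sampling noise.

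The members and lists were chosen with earlier results of these data known. The correlations with Adipoq and the comparison with pads 1 to 12 alone in the normal-tissue fit were added after the data were seen. The 6 members are named in every comparison, and at most 2 identifiers for likeness; ENSRNOG00000012067 was chosen after its values were seen. The reference table pairs 0 of the identifiers with symbols, so the level of Nf1, the other pathway lists and the cell type markers are not analysed here.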

Additional observations from a re-analysis of the deposited data

Results flagged for a closer look

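A gap test for a single library far from its group was made on CPM 36 times, for the 6 members in the pad and tumor groups of 5 to 9 libraries. Chance alone would mark about 1 in 20 only if CPM values were normally distributed within a group, which was not tested. Every mark fell on the highest library of its group, and log2 CPM was not used. The test marked 3 libraries in all 5 named genes. These genes correlated with Adipoq over pads and over tumors by Pearson r, so shared marks are not separate signs. The IFPS pad of replicate 6 was highest, with 4786 CPM of Adipoq, 5851 of Fabp4, 172 of Pparg, 480.0 of Cebpa and 8005 of Lpl. The IFPS tumor of replicate 6 was highest, with 7549 CPM of Adipoq, 12637 of Fabp4, 236 of Pparg, 419 of Cebpa and 14143 of Lpl. The PS tumor of replicate 8 was highest, with 70.3 CPM of Adipoq, 185 of Fabp4, 4.47 of Pparg, 56.1 of Cebpa and 216 of Lpl. The IF tumor of replicate 2 stood apart in Fabp4, with 339 CPM.

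ENSRNOG00000005924 differed between tissues in its IF effect by the test of the difference itself. The log2 effect in adipocytes exceeded that in pads by 0.81 and that in fibroblasts by 0.60.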

How the results depend on the processing

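No result with a call changed sign under any alternative. Counts of the 6 members called moved by over 1.5 times, or to or from 0, as follows. Shares of all genes called under these alternatives are not given here. Smaller moves are left out, such as 3 by DESeq2 in IF against wildtype adipocytes (2 with edgeR). DESeq2 called 4 between the wildtype pad sets (0 with edgeR), 2 in IFPS against PS fibroblasts (1), 2 in IFPS tumors against pads (1) and 2 in IFPS against PS tumors (0). Fitting only the groups compared called 1 in IF against wildtype adipocytes (2), 1 in IFPS against IF adipocytes (3), 0 in PS against wildtype fibroblasts (1), 0 in IFPS tumors against pads (1) and 1 in PS against IF tumors (0). IF tumors against pads gave 2 with no low-count filter and 2 with pads 1 to 12 (5). IFPS tumors against pads gave 2 with RLE scaling, 0 with pads 1 to 12 and 0 with pads 13 to 21 (1). For the IF effect in adipocytes against pads, the replicate block with pads 1 to 12 called 5 and the same pads without the block 4 (1). For same-numbered libraries, deviations of log2 CPM from the group means were correlated over 10668 genes. These correlations were over 0.1 in 12 of 12 pairs of fibroblasts with MECs, whose ranges are set side by side above but not tested. They were so in 8 of 12 of MECs with pads, 6 of 12 of adipocytes or pads with fibroblasts, 5 of 12 of adipocytes with pads and 2 of 12 of adipocytes with MECs. No such correlation was taken for unlike numbers, so whether equal numbers share an animal was not tested. The main fits did not take the numbers as pairs, and the block was an alternative. The block moved no other member count by over 1.5 times. The log2 ratio of Lpl to Adipoq against wildtype was 0.052 in IF pads of numbers 1 to 12 (-0.02) and 0.13 in PS pads of numbers 13 to 21 (-0.01).

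Leaving out 1 library gave ranges of 0 to 4 members called between the wildtype pad sets, 0 to 1 in IF MECs, 1 to 6 in IF against wildtype adipocytes, 2 to 6 in PS against IF adipocytes, 1 to 6 in IFPS against IF adipocytes, 0 to 1 in PS against wildtype fibroblasts, 0 to 1 in PS against IF fibroblasts, 1 to 2 in IFPS against PS fibroblasts, 2 to 4 in IF tumors against pads, 0 to 6 in IFPS tumors against pads, 0 to 4 in IFPS against PS tumors, 2 to 5 in wildtype adipocytes against pads, 5 to 6 in wildtype adipocytes against fibroblasts and 0 to 1 for the IF effect in adipocytes against fibroblasts. The ratio ran from -0.085 to 0.050 in IF pads and from -0.084 to 0.055 in PS pads. The cause of these changes was not tested, and the shares of all genes called in these fits are not given here. Adipoq in fibroblasts, at 1 to 15 reads, failed the low-count filter, and lines were not compared for it.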
